A study of Mus musculus with 6 samples.

Results

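Gm94, Apobec1, Ildr2 and Syt7 were 4 genes with much lower signal in hair follicle bulbs without functional Notch1, and they had been grouped as lying outside the known cell lineages of the follicle. They were chosen by the measured difference between the 2 emN1 arrays and the 4 control arrays, so that this difference is given below as a description and was not tested. All probe sets annotated to these symbols were taken, each on its own, which gave 9 of the 45037 probe sets of the array that are not controls: 1 for Gm94, 1 for Apobec1, 3 for Ildr2 and 4 for Syt7. Of these, 6 passed a filter on dim signals that kept 27022 probe sets, and 3 did not (2 of Ildr2 and 1 of Syt7).

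The study measured RNA from mouse hair bulbs on postnatal day 9, during growth of the first coat, on 6 one-colour arrays. The emN1 bulbs (2 arrays) came from skin areas with Notch1 deletion dating from the embryo, and functional Notch1 is absent there. The anN1 bulbs (2 arrays) came from areas where deletion occurred only in anagen, the growth phase of the follicle, and still have functional Notch1. The wild-type bulbs (2 arrays) complete the set, and the design names anN1 and wild-type together as controls. Thus the anN1 controls share a deletion of Notch1, later in time, with the emN1 bulbs, while the wild-type controls do not. Neither the strain, nor the driver of the deletion, nor the number of animals behind an array is stated in the labels. By the design text the arrays form 2 sets, the first with 1 emN1 and 1 anN1 array and the second with the other 4. Each sample is titled a biological replicate, and whether each came from its own animal is not said. The p-values therefore cover the spread among these samples, and the number of arrays limits the precision.

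Values are signal units on a linear scale, as deposited. A signal was called near background when it lay under 112, the 95th percentile of 20 control probe sets for bacterial genes without detectable signal. Log2 differences were computed after adding 17.8 units to every signal, which understates the change of dim genes. The brighter Notch1 probe set gave 6498 and 6292 units in emN1, 15077 and 12527 in anN1, and 23750 and 34070 in wild-type bulbs. Control probe sets for the 3' part of Cre, the phage recombinase used for conditional deletion in mice, gave 349 to 612 units on the emN1 and anN1 arrays and 4.29 to 79.0 on the wild-type arrays. All 15 measured hair matrix and shaft keratinocyte markers and all 10 inner root sheath markers exceeded the background limit on at least 1 array. Measured genes are those that passed the filter on dim signals, which requires this, so it does not describe the tissue. The 5' to 3' signal ratio of the beta-actin control was 0.177 to 0.218 in the first array set and 0.370 to 0.419 in the second, and its part in the results was not tested.

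The 4 genes have little in common by known function. Apobec1 is a cytidine deaminase that, together with RNA-binding cofactors, edits cytidine to uridine in the messenger RNA of apolipoprotein B in the intestine and in the 3' ends of other transcripts. Syt7 is a synaptotagmin, a membrane protein whose paired C2 domains bind calcium and phospholipids. It acts in slow vesicle release and in the fusion of lysosomes with the plasma membrane. Ildr2 belongs to the angulins, immunoglobulin-like receptors that also include Ildr1 and Lsr and mark the corners where 3 epithelial cells meet, and it is known in mice as a modifier of diabetes. Gm94 is a predicted protein-coding gene with no descriptive name in the annotation used. Notch1 itself is a receptor whose cleaved intracellular part joins the DNA-binding protein Rbpj to switch on target genes.

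Promoter windows from RefSeq (assembly GRCm38.p6), from 250 bases before to 50 after the start site, were at hand for Apobec1 and Ildr2 and are shown because both genes were under the background limit on both emN1 arrays and above it on every control array. They were searched on both strands for TGGGAA and its longer form GTGGGAA, which overlap and are letters bound by Rbpj, then for CATGTG as well as for CACGTG, letters bound by helix-loop-helix factors such as Mitf, for CTTTGA, letters bound by Tcf and Lef factors, and for TATAAA. Capitals mark every match.
Apobec1, chr6:122602395-122602694, minus strand: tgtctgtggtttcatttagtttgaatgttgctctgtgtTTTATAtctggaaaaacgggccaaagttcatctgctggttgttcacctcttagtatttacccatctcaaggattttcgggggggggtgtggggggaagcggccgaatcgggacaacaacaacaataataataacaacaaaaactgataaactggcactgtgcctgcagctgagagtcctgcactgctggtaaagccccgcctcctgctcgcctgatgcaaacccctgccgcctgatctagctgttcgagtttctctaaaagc
Ildr2, chr1:166253889-166254188, plus strand: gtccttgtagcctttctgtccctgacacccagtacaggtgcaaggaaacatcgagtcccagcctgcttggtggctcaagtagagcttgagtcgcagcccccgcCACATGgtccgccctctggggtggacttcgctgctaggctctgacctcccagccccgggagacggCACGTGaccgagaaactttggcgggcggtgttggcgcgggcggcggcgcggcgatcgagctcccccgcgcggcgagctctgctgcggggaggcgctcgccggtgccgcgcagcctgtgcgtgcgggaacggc
The Ildr2 window held CATGTG once, on the opposite strand, and CACGTG once. These letters occurred in 14.2% and 7.15% of 32851 promoter windows of the same length. The Apobec1 window held TATAAA once, on the opposite strand, as did 13.6% of all windows. The Rbpj letters were not matched in either window, while TGGGAA occurred in 25.6% of all windows and its longer form in 6.38%. The Tcf and Lef letters were not matched either, and occurred in 16.0% of all windows. The windows differed in base composition: Ildr2 had 32 CpG pairs and 69% G and C, and Apobec1 had 9 CpG pairs and 48.3% G and C, against medians of 7 and 52.7% over all windows.

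Gm94 was bright in the controls and measurable on every array. Its probe set (1458367_at) gave 483 and 146 units in emN1 bulbs, against 3680 and 2436 in anN1 bulbs and 2922 and 3078 in wild-type bulbs. The emN1 signals were above background and far under every control, with the lowest control 5.04 times the higher emN1 signal. The log2 difference between emN1 and controls was -3.61 (SE 0.27, 2 against 4 arrays), a 12.2-fold lower level. The difference was -3.39 (SE 0.27) from anN1 and -3.95 (SE 0.30) from wild-type bulbs. As these are bulk samples, fewer cells of a type and less RNA per cell cannot be told apart, here or for any gene below.

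Apobec1, the RNA-editing deaminase, gave 76.5 and 34 units in emN1 bulbs (1451755_a_at), against 850 and 724 in anN1 bulbs and 414 and 569 in wild-type bulbs. Both emN1 signals lay under the background limit and all control signals above it. The difference is therefore a bound: with signals under the limit raised to it, the fitted log2 difference from controls was -2.56. With the signals as deposited it was -3.36 (SE 0.34) from all controls, -3.52 (SE 0.40) from anN1 and -3.12 (SE 0.44) from wild-type bulbs. Among the controls, both anN1 signals were higher than both wild-type signals.

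The 3 probe sets of Ildr2, the angulin, did not give the same picture, since 2 of them were near background. The brightest (1436293_x_at) gave 69.6 and 15.2 units in emN1 bulbs, against 375 and 473 in anN1 bulbs and 486 and 420 in wild-type bulbs. Again both emN1 signals were under the limit with every control above it, and with signals under the limit raised to it the fitted log2 difference from controls was -1.92, which is a bound. With the signals as deposited it was -3.18 (SE 0.44), and the 4 control signals lay within 1.30-fold of each other, the closest of the 9 probe sets. The suffix of this probe set marks probes that can also match other sequences, which the values cannot separate. A second probe set (1436221_at) gave 14.7 and 10.8 units in emN1, against 145 and 51.3 in anN1 and 29.5 and 122 in wild-type bulbs. Its emN1 signals were again the lowest, but 2 of the 4 controls were also near background and no fold is given. The last (1436894_at) was under 112 on all 6 arrays, at 7.44 to 67.0 units, and measured nothing above background.

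Syt7, the calcium sensor, had 3 bright probe sets, all lowest in emN1 but to different degrees. The brightest (1460081_at) gave 269 and 798 units in emN1 bulbs, against 1871 and 4017 in anN1 bulbs and 2563 and 3116 in wild-type bulbs, a log2 difference of -2.27 (SE 0.24) from controls. Another (1441927_at) gave 398 and 245 units in emN1, against 2449 and 957 in anN1 and 814 and 1076 in wild-type bulbs, a log2 difference of -2.15 (SE 0.24). The emN1 and control signals of these did not overlap, and no array was near background. A further one (1439633_at) gave 581 and 832 units in emN1, against 1526 and 1331 in anN1 and 1266 and 1146 in wild-type bulbs, where the lowest control was 1.38 times the higher emN1 signal and the log2 difference was -0.89 (SE 0.22). The last (1423012_at) was dim, at 205 and 194 units in emN1, 101 and 192 in anN1 and 147 and 21.6 in wild-type bulbs. There the emN1 signals were the highest, with 2 of the 4 controls near background. RefSeq lists 4 curated Syt7 transcripts, and which of them each probe set reads was not determined here.

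**Figure D1:**
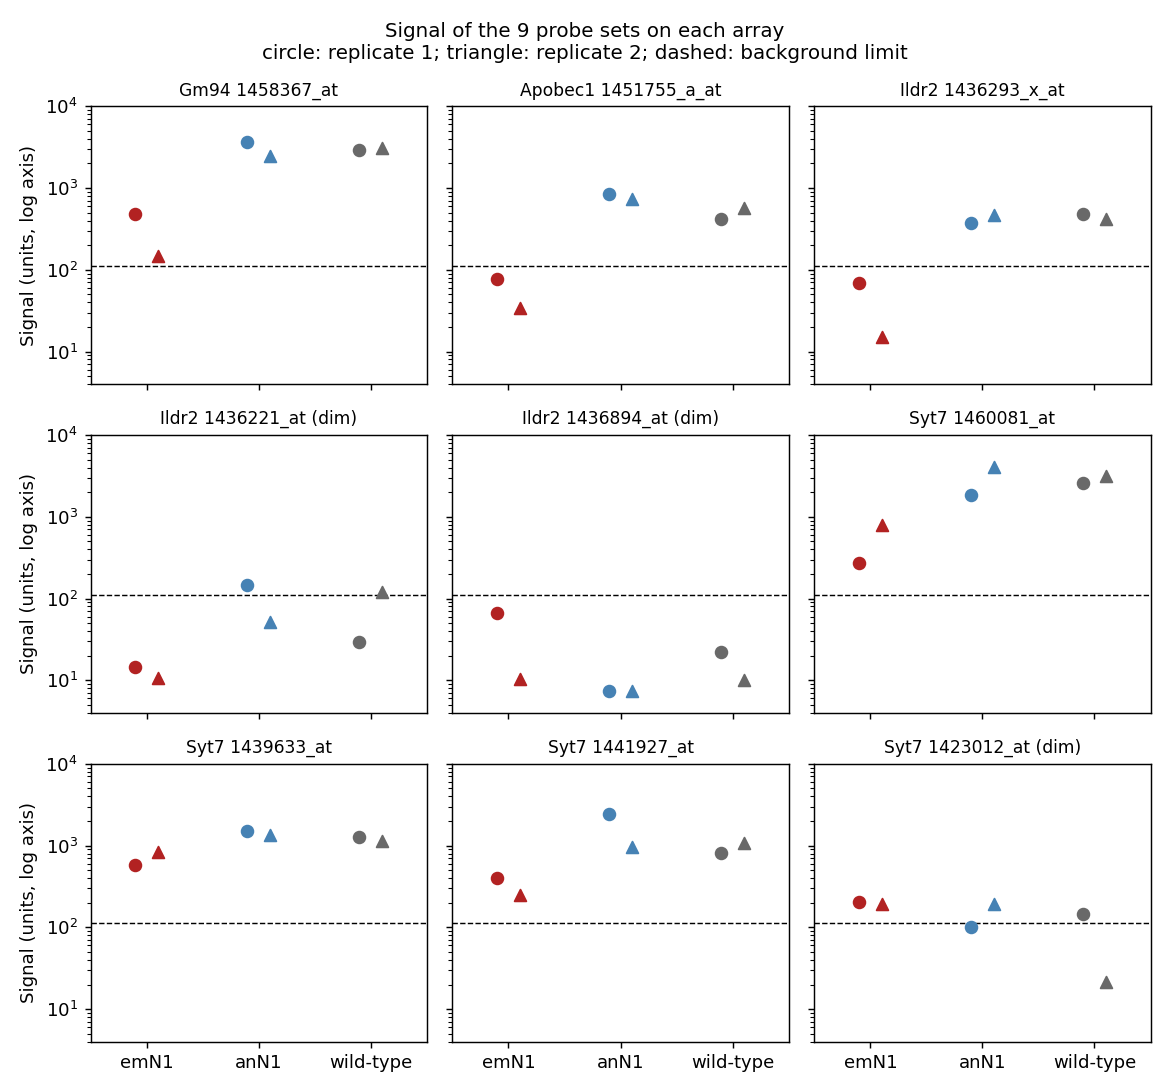
Signal of each of the 9 probe sets on the 6 arrays (log axis, signal units), with emN1, anN1 and wild-type bulbs from left to right, circles for replicate 1 and triangles for replicate 2. The dashed line is the background limit of 112 units. The emN1 points lie under every control point in 7 panels, and the panels marked dim are those under the filter.

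Over all 9 probe sets, both emN1 arrays lay under all 4 control arrays in 7, and in all 6 that passed the filter. Over the whole array this held for 8.09% of all probe sets and 9.33% of kept ones, and 1.37% of kept probe sets were past the threshold in the lower direction (limma, Benjamini-Hochberg adjusted p under 0.05), as were 5 of the 6 kept here and 0 of the 6 without emN1 replicate 2. These counts restate how the genes were chosen. The one not past it was Syt7 1439633_at. Where both emN1 signals were above background, the replicates differed from each other, though not in the same direction. Replicate 2 was the lower for Gm94 and Syt7 1441927_at, by 3.30 and 1.62 times. Replicate 1 was the lower for Syt7 1460081_at and 1439633_at, by 2.96 and 1.43 times. The emN1 replicates of Apobec1 and Ildr2 1436293_x_at were both under the background limit and have no order.

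The size of the difference also varied between the array sets. In the first set, with anN1 as the only control, emN1 minus anN1 was -2.88 for Gm94 and -2.72 for Syt7 1460081_at on the log2 scale. In the second set the same differences were -3.90 and -2.31. Gm94 thus had a larger difference in the second set, and Syt7 in the first. For Apobec1 and Ildr2 the emN1 signals were under the limit in both sets, so that their differences by set have no order. Each of these values rests on 1 array a group and was not tested.

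The comparison of anN1 with wild-type bulbs leaves the emN1 arrays out of the contrast, but not out of the fit. All wild-type arrays are in the second set, so that the set term rests on the emN1 and anN1 arrays. Values of emN1 thus enter the fitted difference. The choice of genes did not use this comparison directly, although choosing genes low against both controls favours genes whose controls are alike. None of the 6 kept probe sets passed this comparison (limma, Benjamini-Hochberg adjusted p = 0.999 for each), where 0.074% of all kept probe sets did. An unadjusted p under 0.05 was found for 1 of the 6, beside 3.64% of all kept probe sets. That was Syt7 1460081_at, at 0.61 log2 units higher in anN1 (SE 0.23, limma unadjusted p = 0.0346, 2 against 2 arrays after the set term). Within the second array set alone it was 0.50. Its mean log2 signals were 11.43 in anN1 and 11.47 in wild-type bulbs, so that over all arrays the direction depends on the set term. The other differences, anN1 minus wild-type, were -0.55 (SE 0.30) for Gm94, 0.40 (SE 0.44) for Apobec1, -0.37 (SE 0.59) for Ildr2 1436293_x_at, 0.20 (SE 0.32) for Syt7 1441927_at and 0.32 (SE 0.28) for Syt7 1439633_at. Each of these lies within 2 standard errors of 0, and no difference was detectable with these arrays. Without the set term the Gm94 difference was -0.002. Within the second array set alone, which uses no emN1 array and 1 anN1 array, the same 5 differences were -0.30, 0.56, 0.06, 0.03 and 0.14. Notch1 itself, for comparison, was at -1.13 log2 units in anN1 relative to wild-type (SE 0.20), which did not pass either (limma adjusted p = 0.289).

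**Figure D2:**
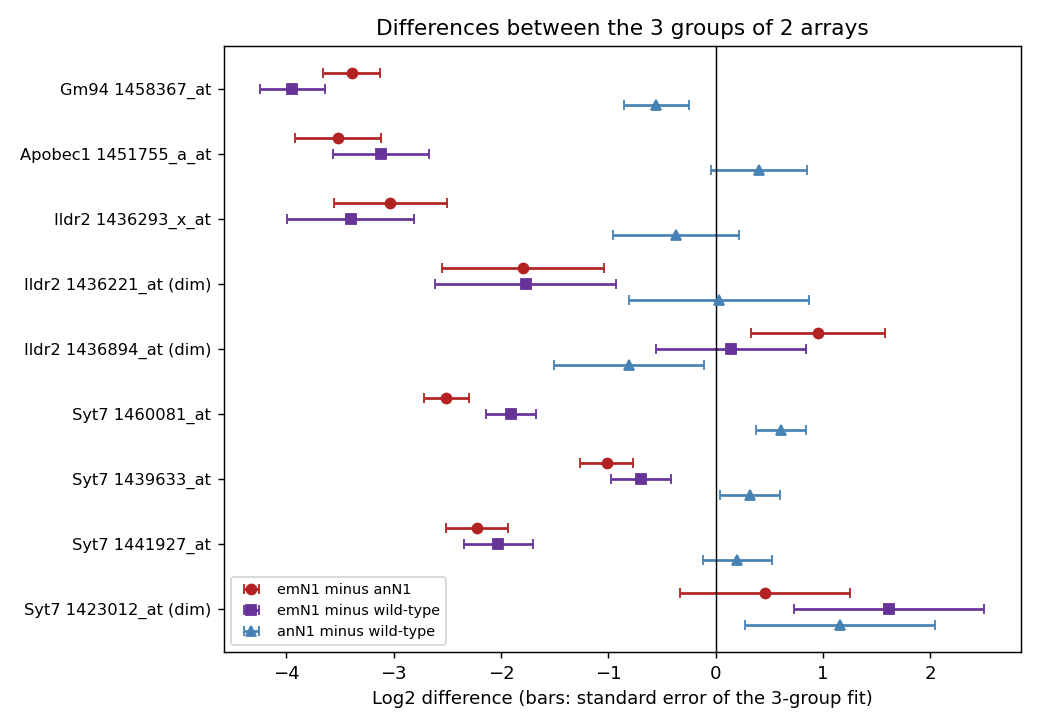
Log2 differences of the 9 probe sets for emN1 minus anN1 (circles), emN1 minus wild-type (squares) and anN1 minus wild-type (triangles), with standard errors from the fit with 3 groups of 2 arrays. The first 2 contrasts share the emN1 arrays, which enter the third through the set term of the fit. For the 6 brighter probe sets the first 2 lie under 0, from -3.95 to -0.70, while anN1 minus wild-type lies between -0.55 and 0.61.

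Likeness between genes was measured as the root mean square difference over the 6 arrays between the log2 signals of 2 probe sets. Each probe set was centred on its own mean. Gm94, Apobec1, Ildr2 and Syt7 were each represented by their brightest probe set. Any other gene was represented by whichever of its kept probe sets lay nearest, which need not be its brightest. A gene with several kept probe sets thus had more chances to lie near. Gm94 and Ildr2 lay 0.32 apart, Gm94 and Apobec1 0.39, and Apobec1 and Ildr2 0.43. Syt7 lay 0.89 from Apobec1, 0.92 from Ildr2 and farther from Gm94. Of the 22765 kept probe sets with 1 symbol it stood at place 89 in nearness to Apobec1, 116 to Ildr2 and 154 to Gm94. These distances rest in part on emN1 signals of Apobec1 and Ildr2 under the background limit, and likeness among genes chosen for a large decrease is in part fixed by the choice.

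The third gene nearest to Gm94, and the second nearest to Ildr2, was Jakmip2, which encodes a coiled-coil protein of the JAKMIP family (distances 0.51 and 0.40). Jakmip2 1436552_at gave 195 and 102 units in emN1 bulbs, against 831 and 734 in anN1 bulbs and 1068 and 1308 in wild-type bulbs. Its log2 difference from controls was -2.66 (SE 0.35), with 1 emN1 signal near background, and its other 2 probe sets were dim. Genes named here for a pattern like that of the 4 were chosen on the same difference, which was not tested for them. After Gm94 and Ildr2, the gene nearest to Apobec1 was Tyrp1, at 0.55, through 1439409_x_at. Tyrp1 is a melanosomal enzyme of pigment synthesis, and this probe set gave 8388 and 9756 units in emN1, against 51341 and 54094 in anN1 and 39659 and 37933 in wild-type bulbs. Like Apobec1, it had both anN1 signals above both wild-type signals. Its log2 difference from controls was -2.33 (SE 0.16), and that of the brightest Tyrp1 probe set was -1.51 (SE 0.12). The nearest genes of Syt7 were Tyr, Egfl6 and Lypd6 (distances 0.27, 0.28 and 0.34). Tyr, the tyrosinase that starts pigment synthesis, gave 682 and 1517 units in emN1 (1456095_at), against 3870 and 6581 in anN1 and 7443 and 7263 in wild-type bulbs, a log2 difference of -2.32 (SE 0.13). The brightest Tyr probe set was at -1.57 (SE 0.13). Egfl6, a secreted matrix protein, was at -1.87 (SE 0.21). Lypd6 1457843_at, of the Ly6 family, was at -1.86 (SE 0.47), and its brightest probe set at -0.79 (SE 0.18). With a larger addend of 100 units in place of 17.8, which damps dim signals, 2 of the 3 nearest genes were the same for Gm94 and Syt7, 1 for Apobec1 and 0 for Ildr2, and Apobec1 then lay nearest to Gpr143, Mc1r and Tyrp1, all of melanocytes. Ranked by correlation over the 6 arrays instead, 0 of the 3 were the same for Gm94, Apobec1 and Ildr2, and 1 for Syt7. The genes nearest to each thus depend on the measure.

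**Figure D3:**
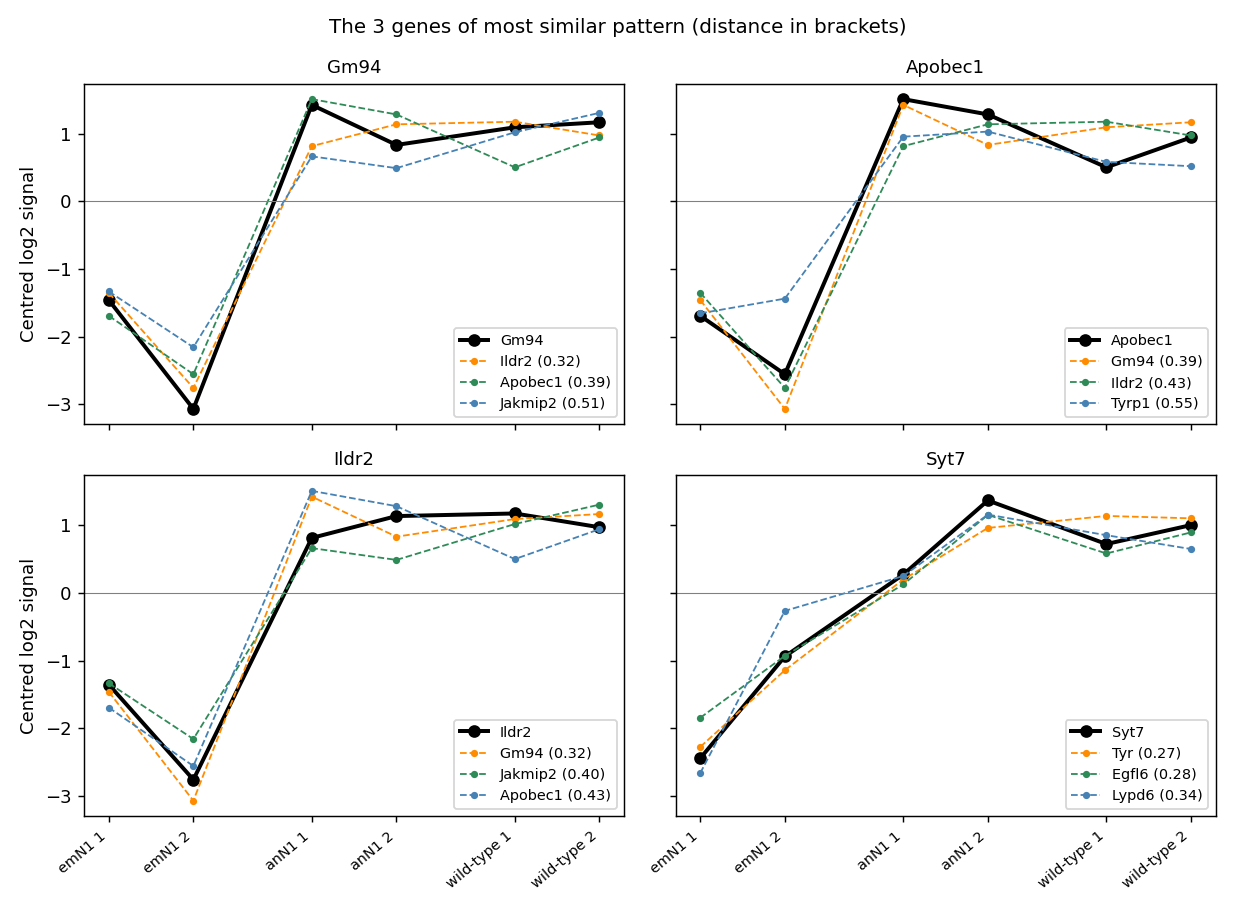
Centred log2 signal of each of the 4 genes (black) and its 3 nearest genes (colours, distance in brackets) on the emN1, anN1 and wild-type arrays; lines join the arrays of 1 gene and mark no order. Gm94 is lowest on emN1 replicate 2 and Syt7 on emN1 replicate 1, while both emN1 points of Apobec1 and Ildr2 are under the background limit.

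Set against marker genes of 12 cell types or layers of skin, all 4 genes were nearest to the melanocyte list. Their distances from its median pattern were 1.03 for Gm94, 0.859 for Apobec1, 0.889 for Ildr2 and 0.781 for Syt7, and from every other list at least 1.40. The distance uses the same emN1 and control values that chose the genes, so that nearness to a list low in emN1 follows in part from the choice and is no test of the lineage they belong to. None of the 4 is in the melanocyte list. Of the 16 measured melanocyte markers, 14 fell in emN1 (limma, adjusted p under 0.05), none rose, and 2 did not pass, Mitf (log2 -0.28, SE 0.18) and Kit (log2 -0.58, SE 0.15). The 14 became 8 without emN1 replicate 1, 8 without anN1 replicate 1, 1 without emN1 replicate 2 and 0 without the intensity trend of the variance. The median log2 difference of the 16 markers was -1.66, beside -0.02 over all genes, of which 1.84% fell and 3.59% rose. Their summed signal was 126961 to 144186 units in emN1, against 349310 to 399099 in anN1 and 284981 to 308419 in wild-type bulbs. No marker was under the background limit on every array, which the filter on dim signals requires. No more than 2 genes fell in any of the other 11 lists, while markers of several rose in emN1. These were 5 of 15 for hair matrix and shaft, 5 of 10 for outer root sheath and basal keratinocytes, 6 of 14 for dermal papilla and fibroblasts, 4 of 11 for macrophages and Langerhans cells, and 4 of 7 for endothelium, pericytes and smooth muscle. In the last list those that rose were Acta2, Tagln, Cspg4 and Pdgfrb, of smooth muscle and pericytes. The endothelial markers Kdr (log2 0.43, SE 0.92) and Tek (log2 -0.73, SE 0.33) did not pass. In anN1 relative to wild-type bulbs, 4 of the 15 hair matrix and shaft markers rose and 1 fell (limma, adjusted p under 0.05). Over all kept probe sets 0.074% passed that comparison. Melanocyte markers thus fell as the 4 genes did, while a part of the markers of the other lists named rose. The part of either in the result was not tested. Of the nerve and Schwann cell markers, a tissue in which Syt7 is known, 1 of 6 measured rose and none fell (summed signal 6425 to 7010 units in emN1, 3241 to 4310 in anN1 and 3397 to 4180 in wild-type bulbs).

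**Figure D4:**
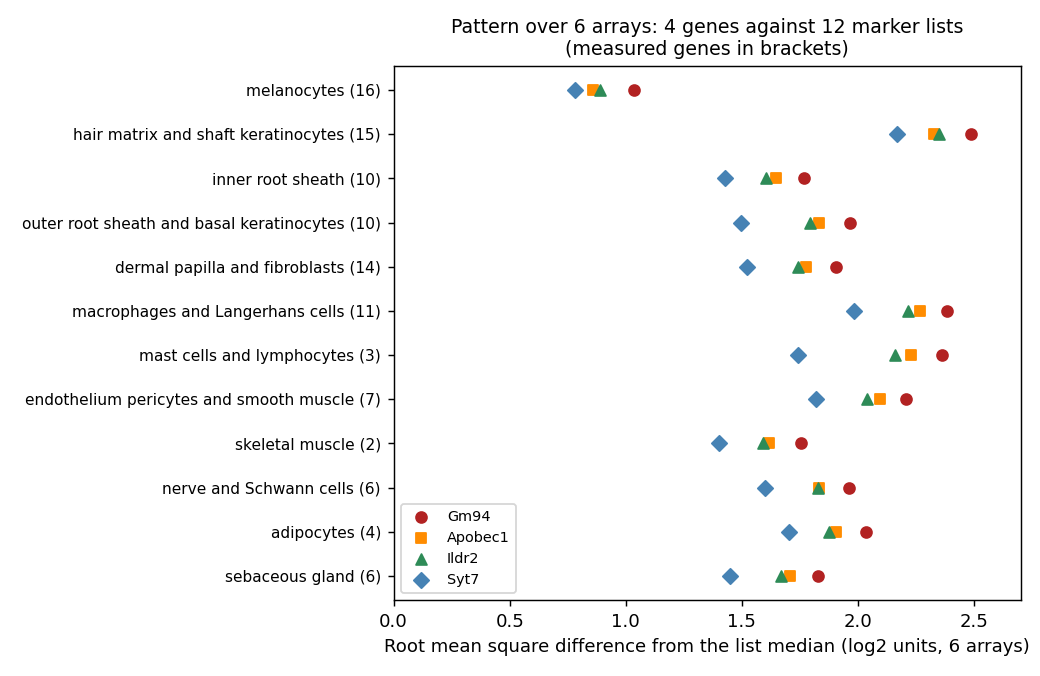
Root mean square difference over 6 arrays (log2 units) between each of Gm94, Apobec1, Ildr2 and Syt7 and the median pattern of 12 marker lists, with the number of measured genes in brackets. Melanocyte markers are the nearest list for all 4 genes, at 0.781 to 1.03. It is also the one list in which most genes fell.

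Genes related to the 4 by family or function mostly did not pass between emN1 and controls. Over 5 such lists, 86 genes other than the 4 were measured and 7 passed, beside 5.43% of all 12611 genes (1.84% lower and 3.59% higher). Notch1 itself, the gene deleted in emN1, is among the 7. Among deaminases and Apobec1 cofactors none of 12 passed (limma; 2 had an unadjusted p under 0.05), with a median of -0.06. Those 2 were the deoxycytidylate deaminase Dctd (log2 -0.78, SE 0.25) and the editing cofactor Syncrip (log2 -0.29, SE 0.11). The direct cofactors A1cf and Rbm47 were at -0.35 (SE 0.43) and 0.83 (SE 0.48), and the relative Apobec2, at 0.82 (SE 0.66), did not pass either. Apobec3 was too dim to be kept.

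Among synaptotagmins and related C2 domain proteins, 1 of 16 fell, none rose and 15 did not pass, with a median of 0.15. The gene that fell was Sytl2, a synaptotagmin-like protein that binds Rab27a on melanosomes and other granules. It gave 5339 and 6624 units in emN1, against 14155 and 12586 in anN1 and 13867 and 11982 in wild-type bulbs (log2 -1.13, SE 0.13, limma adjusted p = 0.00387). Syt4 was at -1.65 (SE 0.38) against all controls and did not pass, with 269 and 1157 units in emN1, against 1082 and 5931 in anN1 and 2184 and 2544 in wild-type bulbs. These overlapped across array sets, and within each set emN1 was the lowest. Against anN1 alone Syt4 passed, at -2.14 (SE 0.20, limma adjusted p = 0.00659), as did 2.02% of all kept probe sets in either direction. The other 7 measured synaptotagmins, Syt1, Syt3, Syt8, Syt9, Syt11, Syt13 and Syt17, ranged between -0.32 and 1.04. In the list of lysosome and granule exocytosis, 2 of 21 fell, none rose and 19 did not pass, with a median of -0.02. These were Rab27a (log2 -1.58, SE 0.24, limma adjusted p = 0.0110) and Myo5a (log2 -0.57, SE 0.11, limma adjusted p = 0.0244), the GTPase and the myosin motor that carry melanosomes to the cell edge. Other probe sets of both did not pass. Mlph, which links them, was at -0.81 (SE 0.22) and did not pass.

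In the list of angulins and tight junctions 1 of 22 rose, none fell and 21 did not pass, with a median of 0.06. Cldn3, a claudin, rose by 1.72 (SE 0.23, limma adjusted p = 0.00703), with 1285 and 1592 units in emN1, against 479 and 427 in anN1 and 389 and 392 in wild-type bulbs. Of its other 3 probe sets 2 passed in the same direction and 1 did not. The angulin Lsr was at 0.43 (SE 0.14) and did not pass, and Ildr1 was too dim to be kept. Of 15 Notch receptors, ligands and targets 3 fell, none rose and 12 did not pass, with a median of -0.21: Notch1 (log2 -1.55, SE 0.35, limma adjusted p = 0.0491), the repressor Heyl (log2 -0.87, SE 0.19, limma adjusted p = 0.0472) and the feedback inhibitor Nrarp (log2 -0.81, SE 0.12, limma adjusted p = 0.00918). The number passing over the 5 lists was 0 without emN1 replicate 2, 1 without emN1 replicate 1 and 2 without anN1 replicate 1.

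**Figure D5:**
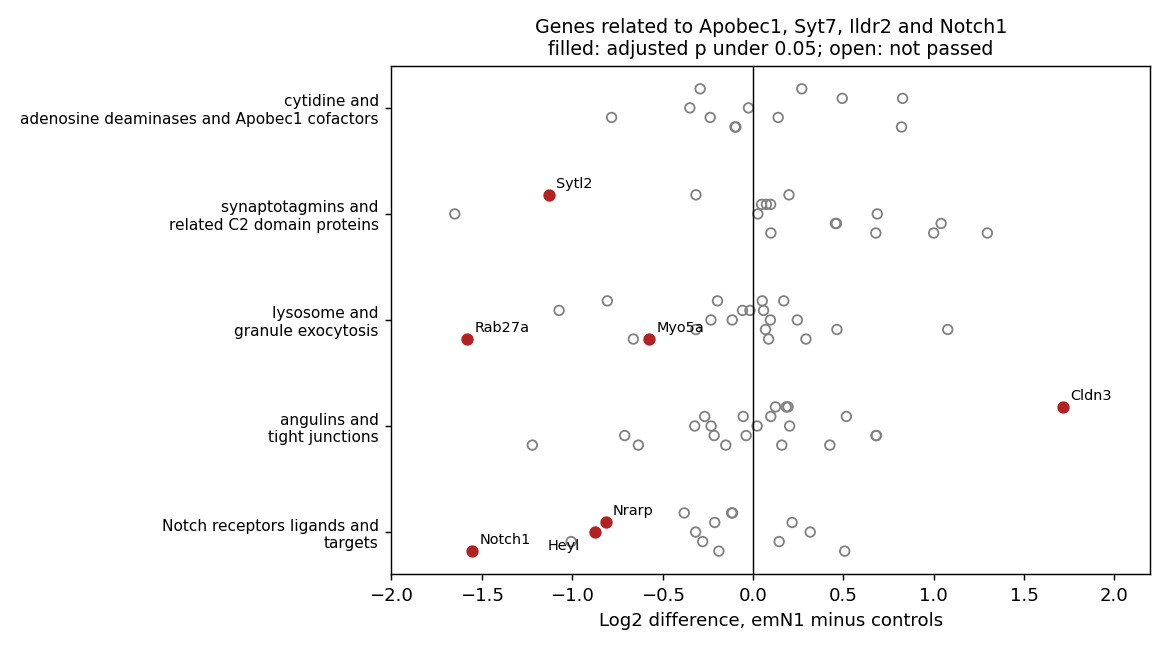
Log2 difference, emN1 minus controls, of each measured gene in 5 lists related to Apobec1, Syt7, Ildr2 and Notch1, the 4 genes themselves left out; filled points passed the test (limma, adjusted p under 0.05). Of 86 genes, 6 fell, the deleted Notch1 among them, and 1, Cldn3, rose.

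Position on the chromosome was not used to choose the genes. For the neighbours, the annotation of GRCm38.p6 gave the names, order and overlap of genes. By that order the nearest measured neighbour of Gm94 on one side was Jakmip2, at -2.66 as given above. The 2 genes do not overlap in that annotation, and 2 annotated genes lie between them. On the other side lay Spink5, an inhibitor of epidermal proteases, at 0.19 (SE 0.46). The neighbours of Apobec1 were Mfap5, a microfibril protein that rose by 1.19 (SE 0.21, limma adjusted p = 0.0180) in its brighter probe set and did not pass in the other, at 0.68 (SE 0.38), and Slc2a3, a glucose transporter at 0.42 (SE 0.37). Beside Ildr2, Creg1 was at -0.48 (SE 0.20) and Tada1 at -0.22 (SE 0.13), and beside Syt7, Dagla was at 0.19 (SE 0.47) and Sdhaf2 at -0.30 (SE 0.23), none past the threshold. Jakmip2 is the same gene that was named above for its pattern.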

How the data were processed

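The deposited values give, for each probe set on 6 arrays, a linear intensity that the authors computed with MAS5, per the submitters' processing notes; no settings or version are named there. On every array the mean between the 2nd and 98th percentiles lay between 1499 and 1500 as deposited, and no rescaling was done. Gene symbols came from the platform annotation. Signals were transformed to log2(signal + 17.8), 17.8 being the 10th percentile of all values, and the upper 60% of probe sets by mean were kept. A linear model with moderated variances that follow intensity (limma 3.58.1, R 4.3.3) was fitted to all kept probe sets with the array set as a term, once with 2 groups and once with 3, and p-values were adjusted by Benjamini-Hochberg over the 27022 kept probe sets with a threshold of 0.05. A gene in a list is its brightest kept probe set. The fit was tested on simulated data. Figures used matplotlib 3.10.9. The background limit came from the dap, bioB, bioC and bioD control probe sets, since the lys, phe, thr and trp controls planned beside dap were bright.

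The members and lists were chosen with earlier results of these data known. Genes were named by rule: all probe sets of the 4 genes, the 3 nearest patterns of each, up to 4 genes past the threshold in each list or otherwise the 2 of smallest unadjusted p, relatives of the 4, the neighbours on each side, and Notch1. Mlph, A1cf, Rbm47, Mitf and Kit were named after their values were seen, and CACGTG was added to the motifs after the sequence was seen. Replicate numbers of emN1 and anN1 equal their array set in the design, which pairs them, so that the set term is the block; replicate differences correlated with r = 0.38 between emN1 and anN1 across probe sets, which are not independent replicates. Alternatives changed the addend, filter, background, normalization, variance model, set term and arrays used.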

Additional observations from a re-analysis of the deposited data

Results flagged for a closer look

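Signal appeared in control probe sets outside the main measurement. The 3' probe set AFFX-CreX-3_at for the Cre recombinase of phage P1 gave 434 and 409 units in emN1 and 395 and 515 in anN1, against 62.4 and 79.0 in wild-type bulbs, and AFFX-r2-P1-cre-3_at gave 428 and 349 in emN1 and 353 and 612 in anN1, against 29.2 and 4.29 in wild-type. They were singled out because every emN1 and anN1 array, from 395 and from 349 units upward, lay above the background limit of 112 and above both wild-type arrays. The 5' probe sets for Cre were dimmer, at 11.4 to 205 units in emN1 and anN1 and 3.12 to 33.4 in wild-type.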

How the results depend on the processing

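The emN1 minus controls difference of the 6 kept probe sets was under 0 in each of 16 alternatives. The genes were chosen for this decrease, so its sign is no independent support. Several alternatives are also the same estimate, because of the set term. Leaving out emN1 replicate 1, leaving out anN1 replicate 1 and using set 2 alone each gave -4.10 for Gm94. With an addend of 1, an addend of 100 and signals raised to the background limit it was -3.78, -2.35 and -2.56 for Apobec1 and -3.86, -1.96 and -1.92 for Ildr2 1436293_x_at, as their emN1 signals lie under that limit. Leaving out each array in turn gave -4.10 to -2.88 for Gm94, -3.85 to -2.17 for Ildr2 and -2.72 to -1.97 for Syt7 1460081_at. Within array sets 1 and 2 the values were -2.88 and -4.10 for Gm94, -2.17 and -3.85 for Ildr2, and -2.72 and -1.97 for Syt7. The number of probe sets past the threshold between emN1 and controls was 1020, and 0 without the intensity trend; it was 1 to 1092 with each array left out, the lowest without emN1 replicate 2. Without the set term, that is with no replicate block, it was 286, and with the replicate block in place of the set 288; 4 of the 6 kept probe sets passed in each. Between anN1 and wild-type it was 20, then 0 without the trend and 0 to 173 with each array left out, and none of the 6 passed in any. The 7 related genes became 0 without the trend, 3 without the set term, 2 with the replicate block and 0 to 8 with each array left out. The count of melanocyte markers under each setting was added after seeing the data: 11 of 16 without the set term or with the replicate block, and 1 to 14 with each array left out. The cause was not tested. Precision is limited by 2 arrays a group.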

Other observations

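A few genes next in likeness to the 4 belong to no list above and are given as values, named after these were seen. Mybpc1, a myosin-binding protein of muscle, lay 0.61 from Gm94, with 29.3 and 23.6 units in emN1, against 413 and 196 in anN1 and 513 and 225 in wild-type bulbs, so that both emN1 signals were near background. Gsta2, a glutathione transferase, lay 0.57 from Ildr2 and 0.66 from Gm94, with 392 and 298 units in emN1, against 1907 and 1317 in anN1 and 1645 and 1905 in wild-type bulbs. Mcoln3, a cation channel of endosomes and lysosomes, lay 0.36 from Syt7 through its dimmer probe set, with 17.2 and 181 units in emN1, against 471 and 654 in anN1 and 466 and 528 in wild-type bulbs.

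Along the chromosome, among the 10 measured genes closest in order to each gene, 5 on either side, 1, Jakmip2, fell and 1 rose beside Gm94, 2 rose beside Apobec1, and none passed beside Ildr2 or Syt7 (limma, adjusted p under 0.05). Over all genes 1.84% fell and 3.59% rose, and an effect of position was not tested.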
